A study of Mus musculus with 4 samples.

Results

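The genes described here handle fatty acids in muscle from their entry to their release from stored fat. The list held 10 genes, Cd36, Lpl, Fabp3, Fabp4, Plin2, Plin4, Plin5, Pnpla2, Lipe and Dgat1, matched by symbol to a count table of 13825 genes. All of them except Fabp3, which was not analysed here, were in the table, and these 9 genes also passed the filter of a mean count of at least 10 that left 13084 genes for testing. The genes were chosen by function and not by their values in these libraries, although earlier results of the same libraries were known.

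RNA-Seq was performed on tibialis anterior (TA) muscle, a fast-twitch muscle of the lower leg, from adult male mice. WT mice (C57BL/6J in the study's methods) were compared with Fgf21KO mice, which lack the secreted growth factor FGF21 in the whole body and whose strain background was not stated. In both genotypes the left sciatic nerve was cut and a segment removed (2 mm in the labels, longer in the methods), and the right leg kept its nerve and served as the sham control of the same animal. Muscles were taken at day 14, and RNA of 4 muscles was pooled into 1 library per group: in WT the sham leg (WS) and the denervated leg (WD), and in Fgf21KO likewise (KS and KD). With 1 pooled library per group, the spread between animals could not be measured, and a difference between 2 libraries has no replicate check.

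Total counts ran from 25249879 in WS to 34141303 in KS, and the 9 genes were counted at 239 to 19563 reads per library, so counting error was small for most of them. The 13 mitochondrially encoded protein genes took 27.0% of counts in WS and 30.4% in KS but 19.4% in WD and 20.6% in KD. Libraries were put on a TMM scale, which sets the bulk of genes level between them, and the log2 ratio of the middle gene among all tested was then 0.01 for denervation in either genotype. Scaled to total counts alone, it was 0.29 and 0.36, so every denervation ratio moved upwards by about that much. Counts of Fgf21 were not analysed here, which leaves the knockout unchecked in these data. The muscle fibre genes Myh1 and Mylpf, the 2 of 10 fibre markers analysed here, summed to between 20944 and 33773 CPM (counts scaled to library size) per library, and both were lower after denervation.

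Muscle fibres burn fatty acids that arrive in the blood as triacylglycerol in lipoproteins or as free fatty acids. Lipoprotein lipase (Lpl) frees fatty acids at the capillary wall, Cd36 carries them across membranes, and fatty acid binding proteins such as Fabp4 hold them in solution. Dgat1 makes the triacylglycerol that fills lipid droplets, perilipins (Plin2, Plin4 and Plin5) coat the droplets, and the lipases Pnpla2 (ATGL) and Lipe (HSL) release fatty acids again. Several of these genes are known targets of PPAR nuclear receptors, which bind DNA as pairs with RXR.

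Because of that known regulation, the 250 bases before the RefSeq start (GRCm38.p6) were searched for AGGTCA, the hexamer that nuclear receptors such as RXR recognise, on either strand (TGACCT on the other). Of the 9 genes, 6 had such a window. Of their 8 windows, 3 held the hexamer (in Plin2, Cd36 and Plin5), against 14.0% of 32851 mouse windows of the same length. A match in letters is not evidence of binding, and no binding was measured here. The windows are shown for Plin2, whose transcripts rose after denervation, for Cd36 and Plin5, whose transcripts fell, and for Plin4, the neighbour of Plin5 with the steeper fall and no match. Each is written from 5′ to 3′ on the strand of its gene, with the hexamer in capitals. Plin2 lies at chr4:86670060-86670309, Cd36 at chr5:17835897-17836146, Plin5 at chr17:56117549-56117798 and Plin4 at chr17:56109783-56110032, all on the minus strand.
Plin2: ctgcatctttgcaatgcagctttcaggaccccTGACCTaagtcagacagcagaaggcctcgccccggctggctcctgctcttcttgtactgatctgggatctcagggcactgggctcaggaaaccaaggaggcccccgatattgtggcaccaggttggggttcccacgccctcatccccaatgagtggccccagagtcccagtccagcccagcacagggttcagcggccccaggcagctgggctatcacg
Cd36: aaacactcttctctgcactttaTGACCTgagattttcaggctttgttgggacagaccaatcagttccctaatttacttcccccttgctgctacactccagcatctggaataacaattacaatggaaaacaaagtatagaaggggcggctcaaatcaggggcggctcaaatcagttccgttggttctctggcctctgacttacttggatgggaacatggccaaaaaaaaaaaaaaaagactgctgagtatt
Plin5: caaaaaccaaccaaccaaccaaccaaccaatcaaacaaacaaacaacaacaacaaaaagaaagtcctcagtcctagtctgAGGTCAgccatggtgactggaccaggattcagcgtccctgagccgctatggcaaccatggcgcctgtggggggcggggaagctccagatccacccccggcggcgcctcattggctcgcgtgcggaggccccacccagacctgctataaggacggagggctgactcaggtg
Plin4: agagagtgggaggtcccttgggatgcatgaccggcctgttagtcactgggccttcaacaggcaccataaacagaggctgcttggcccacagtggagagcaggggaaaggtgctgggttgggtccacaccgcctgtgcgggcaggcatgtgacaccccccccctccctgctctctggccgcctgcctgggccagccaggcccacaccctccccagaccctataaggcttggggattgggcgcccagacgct
The hexamer began 218 bases before the start of Plin2, 228 before that of Cd36 and 170 before that of Plin5. The other window of Plin5, both windows of Lipe and the window of Pnpla2 held none. So the genes with a match in this window moved in both directions after denervation, as the values given next show.

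Denervated and sham muscle were compared within each genotype to ask how loss of the nerve changed these transcripts. Transcripts for taking up fatty acids and for coating droplets fell with denervation in both genotypes, except Plin2, which rose. In the additive model over all 4 libraries (edgeR's quasi-likelihood test, Benjamini-Hochberg adjustment over 13084 genes), 6 of the 9 genes were lower after denervation, 1 was higher, and Pnpla2 and Dgat1 did not pass. Of all genes tested, 26.6% passed as lower and 26.4% as higher. Scaled to total counts alone, 5 of the 9 genes passed as lower and 3 as higher. At least 2-fold lower were Lpl and Plin4, 2 of 9 in WT (WD vs WS) and 2 of 9 in Fgf21KO (KD vs KS), where 7.52% and 6.07% of all genes were. None of the 9 was at least 2-fold higher, against 7.25% of genes in WT and 7.52% in Fgf21KO. The median log2 ratio of the 9 genes was -0.54 in WT and -0.45 in Fgf21KO, against 0.01 for all genes.

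**Figure D1:**
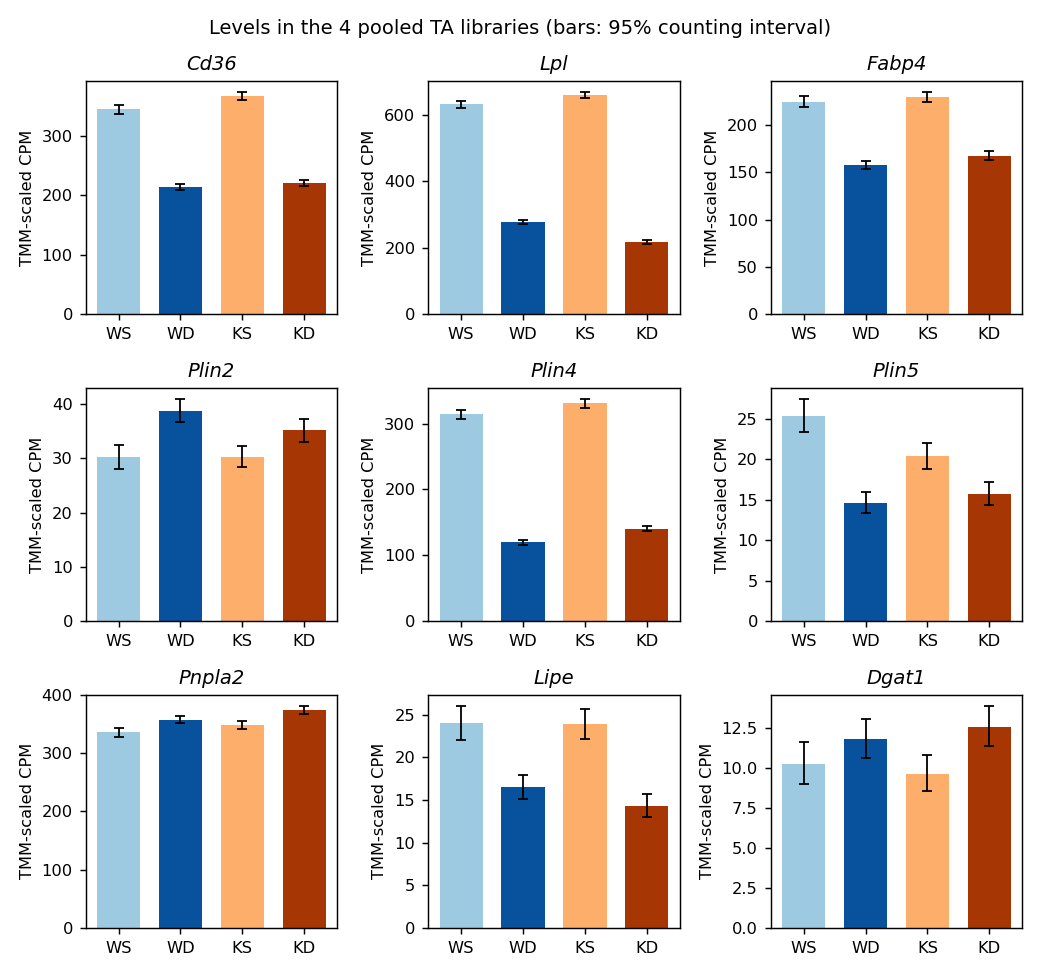
TMM-scaled CPM of each of the 9 genes in the 4 pooled libraries (WS, WD, KS and KD), 1 bar per library from 0, with 95% exact Poisson intervals that cover counting error only. Lpl and Plin4 show the deepest falls, from 631 to 277 CPM and from 314 to 120 CPM in WT, while Pnpla2 stays between 336 and 375 CPM.

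The Lpl transcript, which encodes the enzyme that unloads lipoproteins, was at 631 (WS) and 277 CPM (WD) in WT muscle and at 658 (KS) and 218 CPM (KD) in Fgf21KO muscle. Both denervated libraries lay far below both sham libraries, and the KD library was the lowest. The log2 ratio was -1.19 (95% counting interval -1.23 to -1.15) in WT, a 2.28-fold fall, and -1.60 (-1.64 to -1.56) in Fgf21KO, a 3.03-fold fall. The denervation effect was -1.39 on the log2 scale (quasi-likelihood adjusted p = 3.63e-11). Of all genes tested, 1.53% in Fgf21KO and 4.67% in WT were lower by as much or more.

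Cd36 encodes the membrane carrier of long-chain fatty acids. It was at 344 (WS) and 214 CPM (WD) in WT muscle and at 366 (KS) and 221 CPM (KD) in Fgf21KO muscle. The sham libraries were alike, the denervated libraries were alike, and the step between them was nearly the same in both genotypes. It fell 1.61-fold in WT and 1.66-fold in Fgf21KO, log2 ratios of -0.69 (-0.73 to -0.64) and -0.73 (-0.77 to -0.68), with a denervation effect of -0.71 (quasi-likelihood adjusted p = 4.4e-08).

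Fabp4, a fatty acid carrier inside cells that is best known from adipocytes, macrophages and capillary endothelium, was at 224 (WS) and 158 CPM (WD) in WT muscle and at 229 (KS) and 167 CPM (KD) in Fgf21KO muscle. Its fall was shallower than that of Cd36 or Lpl in both genotypes. The log2 ratio was -0.51 (-0.57 to -0.45) in WT and -0.45 (-0.50 to -0.40) in Fgf21KO, and the denervation effect of -0.48 passed the test (quasi-likelihood adjusted p = 7.68e-06).

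Among the droplet coats, Plin4 encodes a perilipin of adipocytes and muscle. It was at 314 (WS) and 120 CPM (WD) in WT muscle and at 331 (KS) and 140 CPM (KD) in Fgf21KO muscle. Denervated muscle thus held well under the sham level in both genotypes, with no overlap between libraries. It fell 2.62-fold in WT (log2 ratio -1.39, -1.45 to -1.34) and 2.36-fold in Fgf21KO (-1.24, -1.29 to -1.19). The denervation effect of -1.31 had the lowest adjusted p of the 9 genes (quasi-likelihood adjusted p = 6.96e-12), and 2.76% of genes in WT and 3.24% in Fgf21KO were lower by as much or more.

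Plin5, the perilipin that tethers droplets to mitochondria in oxidative tissue, was at 25.4 (WS) and 14.6 CPM (WD) in WT muscle and at 20.4 (KS) and 15.8 CPM (KD) in Fgf21KO muscle. Here the sham libraries were apart and the denervated libraries close. The fall was 1.73-fold in WT (log2 ratio -0.79, -0.97 to -0.62) and 1.29-fold in Fgf21KO (-0.37, -0.55 to -0.20). The denervation effect was -0.58 (quasi-likelihood adjusted p = 0.000336), and it did not pass when libraries were scaled to total counts alone (log2 effect -0.26, adjusted p = 0.108).

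Plin2, the perilipin found on droplets of most tissues, moved the other way. It was at 30.3 (WS) and 38.8 CPM (WD) in WT muscle and at 30.3 (KS) and 35.2 CPM (KD) in Fgf21KO muscle. The sham libraries were equal within counting error, and each denervated library was above both. The log2 ratio was 0.36 (0.22 to 0.49) in WT and 0.21 (0.09 to 0.34) in Fgf21KO. It rose by 0.29 over both genotypes (quasi-likelihood adjusted p = 0.0112), but DESeq2's Wald test did not call it (adjusted p = 0.128).

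**Figure D2:**
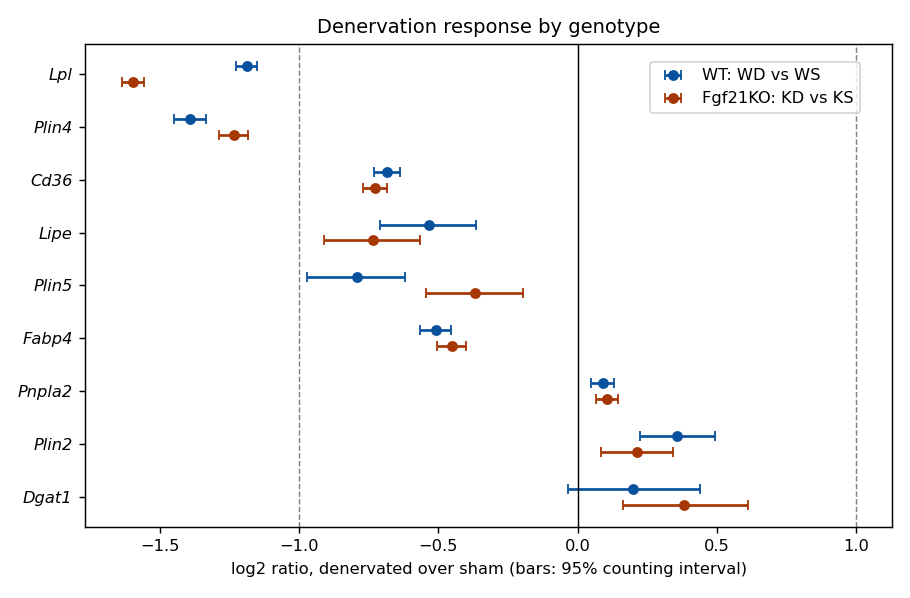
Log2 ratio of denervated over sham for each of the 9 genes in WT (blue, WD vs WS) and Fgf21KO (red, KD vs KS), with bars for the 95% counting interval and dashed lines at the 2-fold limits. Lpl and Plin4 lie beyond the lower limit in both genotypes, Plin2, Pnpla2 and Dgat1 lie above 0, and the genotypes are farthest apart for Plin5 and Lpl.

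Pnpla2, which encodes the lipase that takes the initial fatty acid off triacylglycerol, was at 336 (WS) and 358 CPM (WD) in WT muscle and at 348 (KS) and 375 CPM (KD) in Fgf21KO muscle. Denervated libraries were the higher ones by a small step. The log2 ratio was 0.09 (0.05 to 0.13) in WT and 0.11 (0.07 to 0.14) in Fgf21KO, and the effect of 0.10 did not pass (quasi-likelihood adjusted p = 0.251).

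Lipe, which encodes hormone-sensitive lipase and acts mainly on diacylglycerol, was at 24.0 (WS) and 16.5 CPM (WD) in WT muscle and at 23.9 (KS) and 14.3 CPM (KD) in Fgf21KO muscle. Unlike Pnpla2 it was lower in both denervated libraries, and its sham libraries were equal within counting error. It fell 1.45-fold in WT (log2 ratio -0.54, -0.71 to -0.36) and 1.66-fold in Fgf21KO (-0.73, -0.91 to -0.57), with an effect of -0.64 (quasi-likelihood adjusted p = 5.44e-05).

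Dgat1, which encodes an enzyme for the last step of triacylglycerol synthesis, was at 10.3 (WS) and 11.8 CPM (WD) in WT muscle and at 9.63 (KS) and 12.6 CPM (KD) in Fgf21KO muscle. It was the least abundant of the 9 transcripts, and in WT its interval included no change. The log2 ratio was 0.20 (-0.04 to 0.44) in WT and 0.38 (0.16 to 0.61) in Fgf21KO, and the effect of 0.29 did not pass (quasi-likelihood adjusted p = 0.0692). Scaled to total counts alone, both Dgat1 (log2 effect 0.61, adjusted p = 0.00273) and Pnpla2 (0.42, adjusted p = 9.98e-05) passed as higher by the same test, and both also passed when mitochondrial genes were left out of the totals (adjusted p = 0.00682 and 0.00188).

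In 9 of 9 genes the 2 denervated libraries did not overlap the 2 sham libraries, 6 of them below and 3 above. Such a separation was common, since 36.6% of all genes lay wholly below and 38.3% wholly above after denervation. These were bulk samples, in which fewer cells of a type cannot be told apart from less RNA per cell.

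The levels of different genes were compared per kilobase of exon (GENCODE M21). The length was that of all annotated exons of a gene joined, 10478 bases for Lpl, 4489 for Fabp4 and 3020 for Pnpla2. Such a length can exceed that of the main mRNA, so the order of genes depends on it. In WS the order by CPM per kb was Pnpla2 at 111, Cd36 at 95.8, Lpl at 60.2, Plin4 at 54.4, Fabp4 just under it, Plin5 at 12.1, Plin2 at 8.61, Lipe at 4.07 and Dgat1 at 3.36. On this measure Pnpla2 was the highest of these transcripts in WS, and it remained so in WD at 118. There Cd36 was at 59.6, Fabp4 at 35.1, Lpl at 26.4 and Plin4 at 20.7. In CPM not divided by length, Lpl was the highest in WS, at 631 against 336 for Pnpla2. By these lengths Fabp4 was under Lpl and Plin4 in WS but above both in WD. It was above both in KD too, with Fabp4 at 37.3, Plin4 at 24.3 and Lpl at 20.8. A shorter length for Fabp4 could place it above them in WS as well.

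The makeup of the droplet coat transcripts shifted as well. Summed over Plin2, Plin3, Plin4 and Plin5, perilipin transcripts were at 85.5 (WS) and 42.4 CPM per kb (WD) in WT and at 87.4 (KS) and 45.7 CPM per kb (KD) in Fgf21KO, so the sum was lower in both denervated libraries. Plin4 made up 63.6% of the sum in WS and 65.5% in KS, against 48.8% in WD and 53.2% in KD. The share of Plin2 was 10.1% in WS and 9.88% in KS, against 26.0% in WD and 21.9% in KD. Plin5 held 14.2% (WS) and 16.5% (WD) in WT and 11.2% (KS) and 16.5% (KD) in Fgf21KO, so its share was not lower after denervation even though its level fell. Plin3, a perilipin with a wide tissue range, took the rest. These sums and shares depend on the same joined exon lengths, which were the same for every library.

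**Figure D3:**
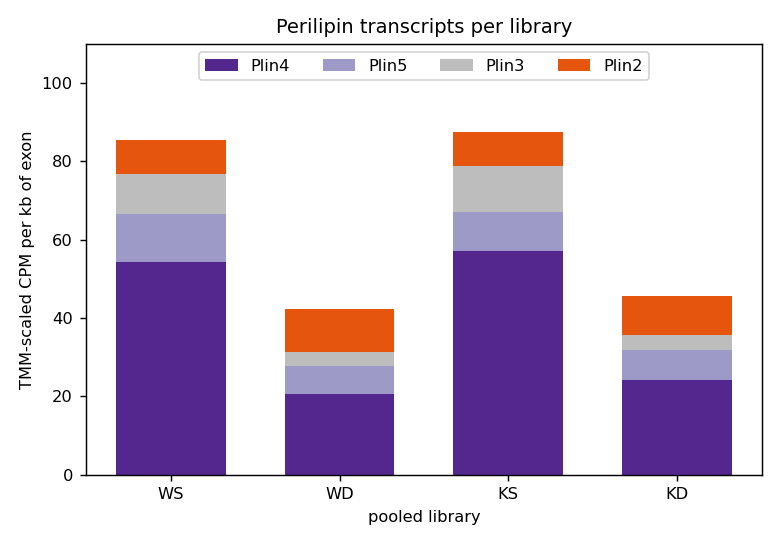
Stacked TMM-scaled CPM per kb of exon of the 4 perilipin genes analysed here in each pooled library. The stacks reach 85.5 in WS and 87.4 in KS but 42.4 in WD and 45.7 in KD, and the Plin2 segment takes a larger share of the denervated stacks.

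Fgf21KO and WT libraries were compared to ask what loss of FGF21 did to these transcripts in innervated and in denervated muscle. None of the 9 genes was at least 2-fold apart between genotypes, where 2.04% of all genes were between the sham libraries (KS vs WS) and 1.56% between the denervated ones (KD vs WD). For genotype, 0 of 9 passed in the model over all libraries (edgeR's quasi-likelihood test and DESeq2's Wald test alike), 1 had an unadjusted p under 0.05 in the former, and the lowest adjusted p was 0.654, for Plin4. Of all genes, 0.573% passed. The median log2 ratio of the 9 genes was 0.03 between the sham libraries and 0.07 between the denervated ones.

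For Lpl, Plin5 and Plin4 the denervation ratio differed between the genotypes by more than counting error. Lpl was 0.06 higher (log2 ratio, 0.03 to 0.09) in KS than in WS but lower in KD than in WD (-0.35, -0.39 to -0.30), so its denervation ratio was 0.41 lower in Fgf21KO (difference of log2 ratios -0.41, -0.46 to -0.35). Plin5 went the other way, lower in KS than in WS (-0.31, -0.48 to -0.15) and at 0.11 (-0.07 to 0.30) in KD vs WD, so its fall was shallower in Fgf21KO by 0.42 (0.18 to 0.67). Plin4 was slightly higher in KD than in WD (0.23, 0.17 to 0.29), and its denervation ratio differed by 0.16 (0.08 to 0.23). These intervals cover counting error only, and with 1 library per group the difference in response had no test against variation between animals.

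For the other genes the difference in response was within counting error. The difference of log2 ratios, Fgf21KO minus WT, was -0.04 (-0.11 to 0.02) for Cd36, 0.06 (-0.02 to 0.14) for Fabp4 and 0.02 (-0.04 to 0.07) for Pnpla2. It was -0.14 (-0.33 to 0.04) for Plin2, -0.20 (-0.44 to 0.04) for Lipe and 0.18 (-0.14 to 0.50) for Dgat1, whose wider intervals follow from lower counts. Each of these 6 intervals included 0.

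To place the 9 genes among their partners, 47 further genes in 5 lists were tested, of 51 listed. After denervation 22 were lower, 12 were higher and 13 did not pass (quasi-likelihood test, against the same 26.6% and 26.4% of all genes). This balance turned with the scaling, to 14 lower and 18 higher under total counts alone and 16 lower and 17 higher when mitochondrial genes were left out of the totals. The median log2 ratio of the 47 was -0.22 in WT and -0.16 in Fgf21KO, nearer 0 than that of the 9. Of these 47, 6 were at least 2-fold lower in both genotypes and 2 at least 2-fold higher in both.

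**Figure D4:**
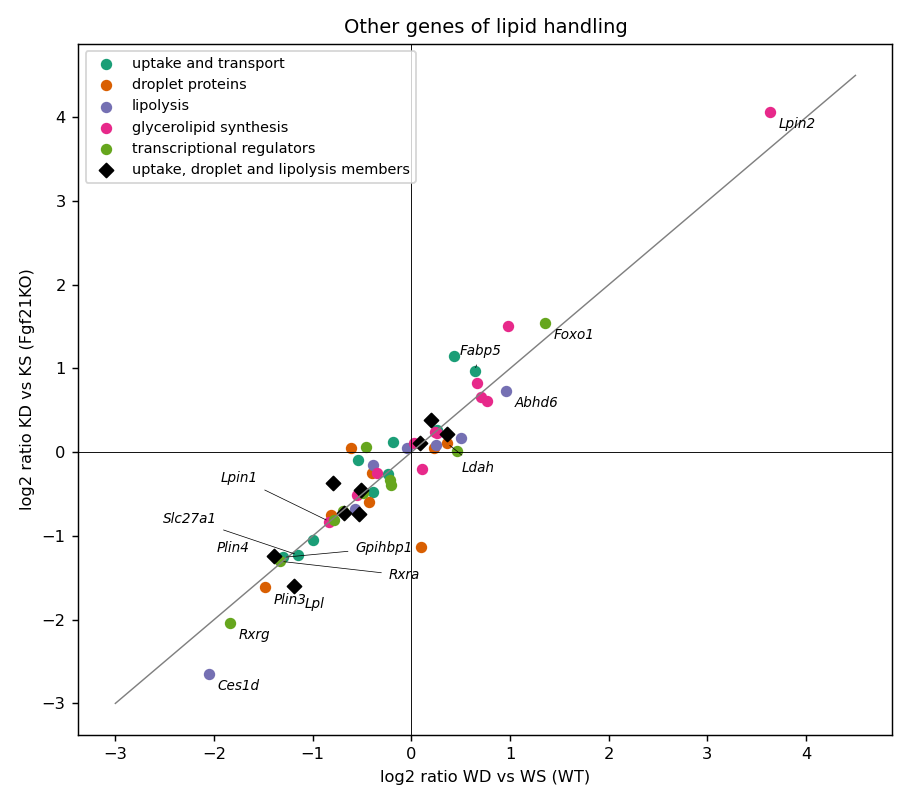
Log2 ratio of KD over KS against that of WD over WS for the 47 further lipid genes (coloured by list) and the 9 genes described (black diamonds), with the line of equal response. Ces1d, Rxrg, Plin3, Rxra, Gpihbp1 and Slc27a1 lie beyond -1 on both axes, and Lpin2 and Foxo1 lie beyond 1 on both.

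Of 10 uptake and transport genes, 5 fell and 2 rose. Gpihbp1, which anchors the Lpl protein to capillary endothelium, was at 39.1 (WS) and 15.8 CPM (WD) in WT muscle and at 30.8 (KS) and 12.8 CPM (KD) in Fgf21KO muscle, log2 ratios of -1.30 and -1.26 (quasi-likelihood adjusted p = 1.45e-09). Slc27a1, a fatty acid transporter of muscle and fat, was at 142 (WS) and 64.1 CPM (WD) in WT muscle and at 142 (KS) and 60.5 CPM (KD) in Fgf21KO muscle, log2 ratios of -1.15 and -1.23 (quasi-likelihood adjusted p = 3.72e-11). So Lpl and its anchor fell in both genotypes, and so did a transporter alongside Cd36. In contrast, Fabp5, a carrier of the same family as Fabp4, rose from 10.9 CPM in WS to 17.05 in WD and from 11.8 in KS to 23.1 in KD (quasi-likelihood adjusted p = 1.13e-05).

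Of 8 further droplet genes tested, of 10 listed, 4 fell and none rose. Plin3 was at 39.2 (WS) and 14.0 CPM (WD) in WT muscle and at 44.5 (KS) and 14.5 CPM (KD) in Fgf21KO muscle, log2 ratios of -1.48 and -1.61 (quasi-likelihood adjusted p = 5.42e-11). Its fall was as deep as that of Plin4, and Plin2 was the only perilipin of the 4 analysed here that rose. The highest of the list, Ldah, a droplet-associated hydrolase, had log2 ratios of 0.36 and 0.11 and did not pass (quasi-likelihood adjusted p = 0.117).

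Of 7 further lipolysis genes, 3 fell and 2 rose. Ces1d, a carboxylesterase with triacylglycerol hydrolase activity, was at 23.4 (WS) and 5.58 CPM (WD) in WT muscle and at 39.8 (KS) and 6.31 CPM (KD) in Fgf21KO muscle, log2 ratios of -2.06 and -2.65 (quasi-likelihood adjusted p = 1.11e-11). Abhd6, a monoacylglycerol hydrolase, rose from 7.09 to 13.8 CPM in WT and from 7.67 to 12.8 in Fgf21KO (quasi-likelihood adjusted p = 3.42e-05). Abhd5 and G0s2, chosen after their values were seen because their proteins activate and inhibit the Pnpla2 lipase, moved in opposite directions while Pnpla2 itself did not pass. Abhd5 was at 59.5 (WS) and 40.05 CPM (WD) in WT muscle and at 65.03 (KS) and 40.5 CPM (KD) in Fgf21KO muscle (quasi-likelihood adjusted p = 1.49e-06). G0s2 was at 9.67 (WS) and 13.8 CPM (WD) and at 11.1 (KS) and 12.5 CPM (KD) (quasi-likelihood adjusted p = 0.0407). The log2 ratio of G0s2 was 0.51 (0.28 to 0.75) in WT and 0.17 (-0.04 to 0.39) in Fgf21KO, where its counting interval included no change. Mgll, which hydrolyses monoacylglycerol, was the only one of the 47 to pass as a genotype effect, lower in Fgf21KO (quasi-likelihood adjusted p = 0.0441), at 57.2 CPM in WS and 40.5 in KS.

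Glycerolipid synthesis was the list with the most rises, 6 of 12 tested against 3 that fell. Lpin2, a phosphatidate phosphatase, was counted at 104 (WS) and 1835 reads (WD) in WT muscle and at 111 (KS) and 1963 reads (KD) in Fgf21KO muscle, log2 ratios of 3.63 and 4.06 (quasi-likelihood adjusted p = 7.37e-16). Its relative Lpin1, which dominates in muscle, fell from 449 to 252 CPM in WT and from 438 to 247 in Fgf21KO (quasi-likelihood adjusted p = 4.52e-09). Lpin3, chosen after its values were seen, was scarce too and rose from 7.35 to 14.5 CPM in WT and from 5.05 to 14.5 in Fgf21KO (quasi-likelihood adjusted p = 7.36e-07). Within this family the abundant member fell and the scarce members rose, and in CPM Lpin1 was still the highest of them after denervation. Dgat2, the other enzyme for the final step beside Dgat1 and chosen after its values were seen, rose from 52.0 to 82.5 CPM in WT and from 55.7 to 99.1 in Fgf21KO (quasi-likelihood adjusted p = 7.85e-08).

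Of 10 transcriptional regulators of lipid genes, 7 fell and 2 rose. Rxra and Rxrg, the partners of PPAR receptors, had log2 ratios of -1.33 and -1.84 in WT and -1.30 and -2.04 in Fgf21KO (quasi-likelihood adjusted p = 4.46e-12 for Rxra and 1.65e-12 for Rxrg). Rxra went from 250 to 99.3 CPM in WT and Rxrg from 49.5 to 13.8. Foxo1, a regulator that is active in fasting and atrophy, rose from 22.5 to 57.5 CPM in WT and from 23.9 to 69.8 in Fgf21KO (quasi-likelihood adjusted p = 2.61e-11). Ppara, chosen after its values were seen, was at 35.8 (WS) and 20.7 CPM (WD) in WT muscle and at 29.6 (KS) and 16.9 CPM (KD) in Fgf21KO muscle (quasi-likelihood adjusted p = 7.96e-07).

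Because muscle also holds capillaries, macrophages, fibro-adipogenic progenitors and adipocytes, and because Lpl, Cd36, Fabp4 and Plin4 are also made outside fibres, marker lists of these cells were read beside the 9 genes. Endothelial markers were lower after denervation in 10 of 10 (quasi-likelihood test), and their summed level stood at 824 (WS) and 373 CPM (WD) in WT muscle and at 681 (KS) and 360 CPM (KD) in Fgf21KO muscle. That list moved with Cd36, Lpl and Fabp4, and its median log2 ratio, -1.10 in WT and -0.94 in Fgf21KO, was below those of Cd36 and Fabp4 and above that of Lpl. Its defining genes Pecam1 and Cdh5 were at 110 and 159 CPM in WS and 55.4 and 66.5 in WD. The part of capillary cells in the falls of Cd36, Lpl and Fabp4 was not tested.

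Macrophage markers moved the other way, with 9 of 11 tested (12 listed) higher and none lower, and a summed level at 35.6 (WS) and 78.2 CPM (WD) in WT muscle and at 38.1 (KS) and 78.0 CPM (KD) in Fgf21KO muscle. Cd68 was at 0.988 CPM in WS and 10.7 in WD, and Adgre1 at 0.945 and 2.18. This list moved with Plin2, which macrophages also make, and its part in the rise of Plin2 was not tested. Fabp4, also known from macrophages, was lower where these markers were higher (log2 ratios -0.51 in WT and -0.45 in Fgf21KO). Of 7 markers of fibro-adipogenic progenitors, 3 were lower (Col1a1, Dcn and Ly6a) and 4 did not pass. Their summed levels were 399 (WS) and 273 CPM (WD) in WT muscle and 412 (KS) and 276 CPM (KD) in Fgf21KO muscle. In WT the largest step was that of Col1a1, from 174 to 75.6 CPM, and Dcn was at 137 and 127 CPM. In Fgf21KO they went from 143 to 86.9 and from 180 to 124 CPM. Pi16 moved opposite ways, with log2 ratios of 0.72 in WT and -1.05 in Fgf21KO, and so did Lum (-0.44 and 0.15). The defining gene Pdgfra was at 8.94 CPM in WS and 6.78 in WD and did not pass (quasi-likelihood adjusted p = 0.054).

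Of 11 adipocyte markers, Cfd, Cidec, Thrsp and Pck1 were tested, and the others, Adipoq and Plin1 among them, were not analysed here. Their summed level stood at 37.0 (WS) and 60.3 CPM (WD) in WT muscle and at 31.5 (KS) and 40.5 CPM (KD) in Fgf21KO muscle. The higher sums after denervation came from Thrsp. Without it the other 3 summed to 22.0025 (WS) and 19.5 CPM (WD) in WT and to 15.8 (KS) and 12.7 CPM (KD) in Fgf21KO. Most of that was Cfd, which was lower in both denervated libraries. Pck1 had log2 ratios of 0.13 in WT and 0.69 in Fgf21KO, and Cidec of 0.09 and -1.13. The median log2 ratio of the 4 markers was 0.11 in WT and 0.20 in Fgf21KO. The part of adipocytes in the falls of Fabp4, Lipe and Plin4 was not tested. Thrsp rose, from 14.998 to 40.8 CPM in WT and from 15.7 to 27.8 CPM in Fgf21KO, and the other 3 did not pass for denervation, while Cfd was lower in Fgf21KO (19.7 CPM in WS, 13.3 in KS, quasi-likelihood adjusted p = 0.0123 for genotype). Cfd, which adipocytes secrete, and Cidec, which is also on the droplet list, were at 17.02 and 1.38 CPM in WD. Slow fibre markers, 3 tested of 7, summed to 52.9 (WS) and 241 CPM (WD) in WT muscle and to 42.7 (KS) and 219 CPM (KD) in Fgf21KO muscle, with Tnnt1 and Atp2a2 higher and Tnnc1 not passing. Plin5 and Cd36, which oxidative fibres make in quantity, fell where these markers were higher, and the part of a change in fibre type was not tested.

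**Figure D5:**
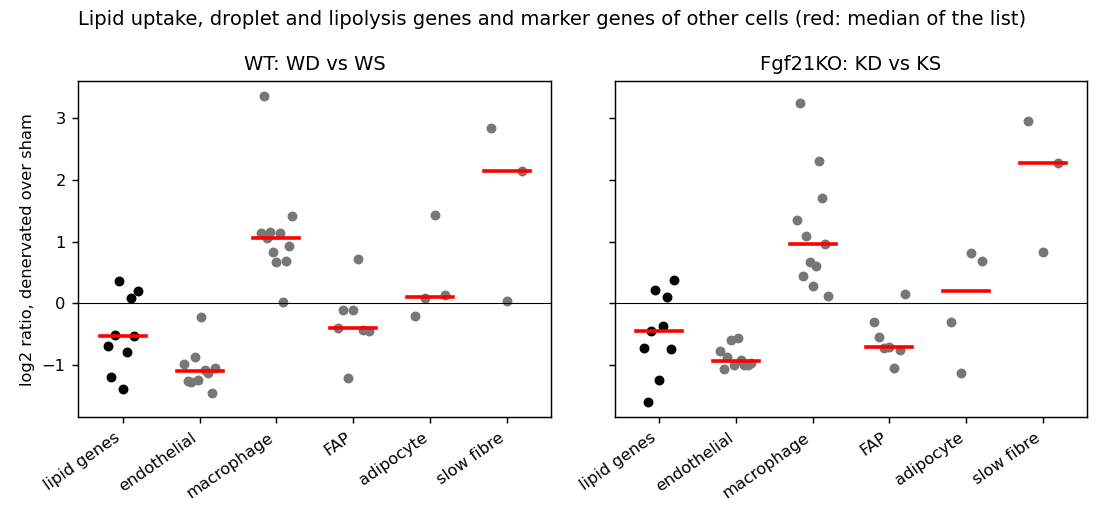
Log2 ratios of denervated over sham in WT (left) and Fgf21KO (right) for the 9 lipid genes and for marker genes of endothelial cells, macrophages, fibro-adipogenic progenitors (FAP), adipocytes and slow fibres, 1 point per gene with the list median in red. All endothelial markers lie below 0 in both panels, all macrophage markers lie above 0, and the 9 genes spread over both signs with medians of -0.54 and -0.45.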

How the data were processed

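RNA of TA muscle, which the study's methods say was submitted to Macrogen, was sequenced from stranded mRNA libraries. Unnormalized read counts, at least 1 per gene and library, were deposited by the authors, along with a table named for FPKM. The deposited log2 values of the latter are log2 of 1 plus the count after multiplying each library by its own factor, with no length correction, so only counts were tested. The processing notes name FastQC and GRCm39, and the aligner and counter are not given in the sources used here.

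After a filter on mean count (10 or more, 13084 genes), data were analysed in R 4.3.3 with edgeR 4.0.16, with TMM factors and a prior count of 2 for log2 CPM. Library pairs were described by log2 ratios, called at 2-fold, with 95% exact binomial intervals (normal approximation for differences of ratios) that cover counting error only. Effects of denervation and genotype were tested over 4 libraries in an additive model by the quasi-likelihood test of edgeR (Benjamini-Hochberg adjusted p at 0.05). Its 1 residual degree of freedom is the interaction. A p-value thus weighs the shared effect against departure from a shared response, and not against spread between animals. DESeq2 1.42.0, other scalings, filters and prior counts were alternatives. The fits were tested on simulated data.

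Named were every gene of the list, pathway genes at least 2-fold changed the same way in both genotypes, the highest and lowest of each pathway list, and the defining markers of each cell list. Genes and lists were chosen with earlier results of these data known.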

Additional observations from a re-analysis of the deposited data

Results flagged for a closer look

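Cidec, a droplet-fusion protein on the droplet and adipocyte lists, was lower after denervation in Fgf21KO, with no clear direction in WT. The log2 ratio was 0.093 (counting interval -0.60 to 0.82) for WD over WS and -1.13 (-1.94 to -0.49) for KD over KS. The WT interval thus included no change. Cidec was counted at 30 (WS) and 45 reads (WD) in WT and at 55 (KS) and 25 reads (KD) in Fgf21KO. The difference of log2 ratios, Fgf21KO minus WT, was -1.22 (-2.18 to -0.27). These intervals cover counting error only, and the difference between the genotypes was not tested against variation between animals.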

How the results depend on the processing

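Scaling to total counts alone left 1 of the 9 genes at least 2-fold lower in WD vs WS (Plin4) and 1 in KD vs KS (Lpl), and turned the genotype effect of Dgat1 from 0.005 to -0.037 (adjusted p = 0.973). Under it, 6114 of all genes were higher and 1674 lower after denervation, against 3450 and 3474 with TMM. With a 2-fold limit added, 2 of the 9 genes (Lpl and Plin4) and 10 of the 47 pathway genes passed the denervation test. Total counts without the mitochondrial genes, an alternative chosen after seeing the data, gave 4790 and 2582. The 9 genes split into 3 higher and 5 lower under total counts, 3 and 6 without mitochondrial genes and 0 and 6 by DESeq2's Wald test, against 1 and 6. Cd36, Lpl, Fabp4, Plin4 and Lipe passed the denervation test as lower under 6 of 6 alternatives without a fold limit. For the 47 pathway genes the split was 18 higher and 14 lower under total counts, 17 and 16 without mitochondrial genes and 8 and 17 by the Wald test, against 12 and 22. Counted without regard to direction, the other 49 summary values were within 1.5 times under the alternatives run. No paired analysis was possible because with 1 library in every group a replicate block would hold all libraries. The genotype term of the model already sets each denervated pool beside the sham pool of its genotype. Leaving out a library was not run because it leaves no residual degree of freedom. Counting intervals were widest for Dgat1, which had the fewest reads.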

Other observations

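Plin4 and Plin5 lie side by side on chromosome 17, between Hdgfl2 and Lrg1 in RefSeq order. These neighbours were chosen after their values were seen. Hdgfl2, a chromatin-associated protein, was at 45.9 (WS) and 47.0 CPM (WD) in WT muscle and at 41.2 (KS) and 42.7 CPM (KD) in Fgf21KO muscle, log2 ratios of 0.03 and 0.05. Lrg1, a secreted glycoprotein, was at 15.7 (WS) and 4.42 CPM (WD) in WT muscle and at 15.2 (KS) and 5.24 CPM (KD) in Fgf21KO muscle, log2 ratios of -1.81 (-2.12 to -1.55) and -1.52 (-1.80 to -1.27). So Plin4, Plin5 and Lrg1 were lower after denervation in both genotypes and Hdgfl2 was not. Of all genes tested, 26.6% passed as lower in the quasi-likelihood test, and a link with position on the chromosome was not tested.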
